A study of Mus musculus with 12 samples.

Results

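The transcription factors of the melanocyte lineage and the genes of pigment synthesis were examined in B16F10 cells, a mouse melanoma line. The set held 10 of the 55487 genes in each count table and was chosen by name, as the 2 transcription factors Mitf and Sox10, the 3 pigment enzymes Tyr, Tyrp1 and Dct, and the 5 melanosome proteins Pmel, Mlana, Oca2, Slc45a2 and Gpr143. The last 8 are called the pigment genes here. All cells were B16F10 that had been infected with lentivirus and selected with puromycin. They carried either a control hairpin (shCtr) or hairpin number 2 against Osgep (shOSGEP), the catalytic subunit of the KEOPS complex that adds the t6A modification to tRNAs reading codons that start with A (ANN codons). Ribosome-protected fragments (RPF, the footprints of translating ribosomes) and total RNA were sequenced in 3 replicates of each genotype, which gave 4 groups and 12 libraries, and the methods state that transductions were independent. The line was not authenticated by the study and 1 hairpin was used, so the hairpin and the loss of its target cannot be told apart.

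Pigment cells make melanin inside melanosomes, organelles related to lysosomes. Sox10, a factor of the neural crest, activates the Mitf gene, and Mitf in turn binds short E-box sequences in front of many pigment genes and is called the master regulator of the lineage. Tyrosinase (Tyr) starts melanin synthesis from tyrosine, Dct and Tyrp1 act on later intermediates, and Pmel builds the fibrils on which melanin is laid down. Melanoma cells can keep this programme or lose part of it, and pigment genes are therefore read as a measure of differentiation state.

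The promoters of the 3 enzymes show the sequence through which Mitf is known to act on this family, and are given because their genes are compared with Mitf below. Reference promoter windows (RefSeq, GRCm38.p6) were at hand for Mitf, Tyr, Tyrp1, Dct and Oca2, 5 of the 10 genes. Within the 250 bases before the annotated start, the longest stretch that Tyr, Tyrp1 and Dct had in common was 10 bases, GTCATGTGCT, which was found on either strand in 51 of 32851 such windows (0.155%). It holds TCATGTG (3.25% of windows), the core of the M-box, which itself contains the E-box CATGTG (12.3% of windows). The 30 bases around it follow, 5′ to 3′ on the strand of the gene, with the shared stretch in capitals. They lie at chr7:87493516-87493545 (minus strand, Tyr), chr4:80834155-80834184 (plus strand, Tyrp1) and chr14:118052379-118052408 (minus strand, Dct).
Tyr: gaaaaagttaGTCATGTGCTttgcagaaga
Tyrp1: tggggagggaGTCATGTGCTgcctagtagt
Dct: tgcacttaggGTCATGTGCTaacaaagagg
The stretch began 23 bases before the annotated start of Tyr, 48 before that of Tyrp1 and 152 before that of Dct. All 30 bases printed for Tyrp1 lie in an exon of the GENCODE M21 annotation, whereas those of Tyr and Dct lie outside the exons of their genes. The Dct window also held TCATGTG once on the other strand, 232 to 226 bases before the start, and the Oca2 window held CATGTG on the other strand. No Mitf window held either motif. CACGTG, another E-box, was in 6.02% of all windows and in none of those of the 5 genes.

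The table gave 3 starts for Mitf, and the most downstream one is followed by the first exon of the isoform made in melanocytes. Its window is shown because it holds a cAMP response element (TGACGTCA, in capitals), the kind of site through which signalling from the receptor Mc1r is known to reach Mitf. This motif was in 1.55% of windows and in that of none of the other 4 genes. The window covers chr6:97991533-97991782 on the plus strand.
Mitf: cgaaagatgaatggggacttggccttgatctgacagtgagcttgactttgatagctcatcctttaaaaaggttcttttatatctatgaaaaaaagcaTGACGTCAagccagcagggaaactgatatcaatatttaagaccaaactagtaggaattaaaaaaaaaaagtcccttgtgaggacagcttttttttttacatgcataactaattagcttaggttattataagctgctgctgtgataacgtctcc
A match is a description of the reference sequence, and binding was not measured in this study.

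The genes lie at separate places in the genome (GRCm38, GENCODE M21), and all are annotated as protein-coding. Mitf (ENSMUSG00000035158) spans 97807052 to 98021349 on chromosome 6 and Sox10 (ENSMUSG00000033006) spans 79154908 to 79165240 on chromosome 15. Among the enzymes, Tyr (ENSMUSG00000004651) lies on chromosome 7 from 87424771 to 87493512, Tyrp1 (ENSMUSG00000005994) on chromosome 4 from 80834123 to 80851719, and Dct (ENSMUSG00000022129) on chromosome 14 from 118012790 to 118052244. Pmel (ENSMUSG00000025359) lies on chromosome 10 from 128704195 to 128720238, Mlana (ENSMUSG00000024806) on chromosome 19 from 29697824 to 29708634, and Oca2 (ENSMUSG00000030450) on chromosome 7 from 56239760 to 56536518. Slc45a2 (ENSMUSG00000022243) lies on chromosome 15 from 11000721 to 11029233 and Gpr143 (ENSMUSG00000025333) on chromosome X from 152781921 to 152808646. The start of Pmel overlaps Cdk2, on the other strand, over 837 bases that include exons of both, and exons of Dgka, also on the other strand, overlap those of Pmel. Whether the counting used strand is not given in the sources used here, so Pmel counts may include reads of these neighbours. Over the total RNA libraries Cdk2 had 4434 to 17108 counts and Dgka at most 300, against 13117 to 203451 for Pmel. Cdk2 counts may in turn include reads of Pmel, and Cdk2 is counted in the list of Mitf targets below.

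Depth and composition differed between libraries. Total counts ranged from 46.7 to 81.1 M (M for mega) in total RNA and from 12.9 to 40.3 M in RPF, of which 4.42 to 17.0 M fell on protein-coding genes. The shOSGEP replicate 1 cells stood apart. Their RPF library had the highest share of ribosomal RNA (67.7%, against 27.7% to 44.8% in the other 5 RPF libraries), and 10 interferon response genes summed to 703 counts per M (CPM) in their total RNA against 54.4 to 88.0 in the other 5 libraries. They also kept the least Osgep RNA, 4.25% of the shCtr value in the same replicate, against 44.0% and 44.4% in replicates 2 and 3, although 63.1% of Osgep footprints were left in replicate 1. The fitted log2 change of Osgep, by edgeR, was −1.65 (SE 0.77, adjusted p 0.975) for total RNA and −0.84 (SE 0.39, adjusted p 1.0) for RPF. Results below are therefore given by replicate pair, and with and without replicate 1.

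The labelled cell type was checked against its markers. Together the 10 genes took 1.105% to 1.821% of the protein-coding counts of shCtr total RNA. In shOSGEP total RNA they took 0.319%, 1.373% and 1.315% in replicates 1, 2 and 3. Of the 10, 9 had at least 358 counts in every total RNA library, the exception being Oca2 with 12 to 143. Markers of other cells were low. In total RNA, Cd3e, Krt5 and Cdh5 had 0 counts in all 6 libraries, and Ptprc, Adgre1, Dcn and Krt14 had at most 5. The fibroblast list (Col1a1, Col1a2, Dcn and Pdgfra) summed to 6.51 to 8.83 CPM in shCtr total RNA and 10.1 to 25.3 CPM in shOSGEP. It was highest in shOSGEP replicate 1, where Col1a1 measured 15.3 CPM against 1.12 in its control. Pdgfra was also higher there (8.65 against 4.27) and Col1a2 lower (1.26 against 3.42). The leukocyte list was at its lowest in the same library, 0.868 CPM, carried by Cd68. In bulk RNA, fewer cells that express a gene and less RNA per cell cannot be told apart.

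In shCtr cells the 10 genes covered a wide range of RNA levels. Per kilobase of exon, Tyrp1 was highest at 1804 ± 579 CPM (SD, n = 3), and ranked 11 among 12134 protein-coding genes tested. Pmel followed at 1199.7 ± 433 and Mlana at 658 ± 236. Dct measured 565 ± 117 CPM per kilobase. Sox10 came next at 190.5 ± 11.0, Slc45a2 at 173 ± 81.6 and Mitf at 96.8 ± 8.61. At the lower end were Tyr at 20.3 ± 16.3, Gpr143, a receptor in the melanosome membrane, at 15.0 ± 6.75, and Oca2, which acts on melanosome pH, at 0.394 ± 0.284. In this order the ranges of 3 shCtr libraries overlapped between all neighbours except Dct and Sox10, Mitf and Tyr, and Gpr143 and Oca2. Tyr, the enzyme that starts melanin synthesis, was thus far below the other 2 enzymes of its family.

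The order was similar on ribosomes. Per kilobase of coding sequence, shCtr footprints were highest on Dct at 1049.7 ± 319 CPM and Tyrp1 at 934 ± 503, followed by Mlana at 476 ± 124 and Pmel at 373 ± 225 (SD, n = 3). Slc45a2 measured 123 ± 68.2, Sox10 93.3 ± 18.0 and Mitf 92.3 ± 1.15 CPM per kilobase. Tyr had 23.3 ± 21.7, Gpr143 8.07 ± 4.99 and Oca2 0.468 ± 0.379. Here only Mitf and Tyr, and Gpr143 and Oca2, did not overlap as neighbours. Oca2 rested on 0 to 32 footprint counts per library and was removed by the filter on low counts in RPF and in translational efficiency. All 10 genes passed the filter in total RNA and 9 in the other comparisons.

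The pigment genes also differed among control cells. Tyr measured 51.9, 275 and 107 CPM in shCtr total RNA replicates 1, 2 and 3, a 5.29-fold range. Of the 8993 genes with at least 10 CPM, 99.8% had a smaller range on the log2 scale. The same share was 99.1% for Gpr143, 99.0% for Slc45a2, 97.9% for Pmel, 97.4% for Mlana, 96.2% for Tyrp1 and 85.4% for Dct. Replicate 2 was the highest and, for all 8 pigment genes except Tyr, replicate 3 the lowest of the controls. Mitf and Sox10 behaved otherwise, with a range of 0.25 and 0.16 on the log2 scale, below the median of 0.32 over these genes. In shCtr RPF, Mitf had 158, 158 and 154 CPM, and only 0.189% of 6865 genes varied less. The contrast was weaker there for other genes, as this share was 44.3% for Sox10, 61.8% for Mlana and 76.4% for Dct. Tyr, Tyrp1, Pmel and Slc45a2 lay at 96.4% to 97.8%.

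**Figure D1:**
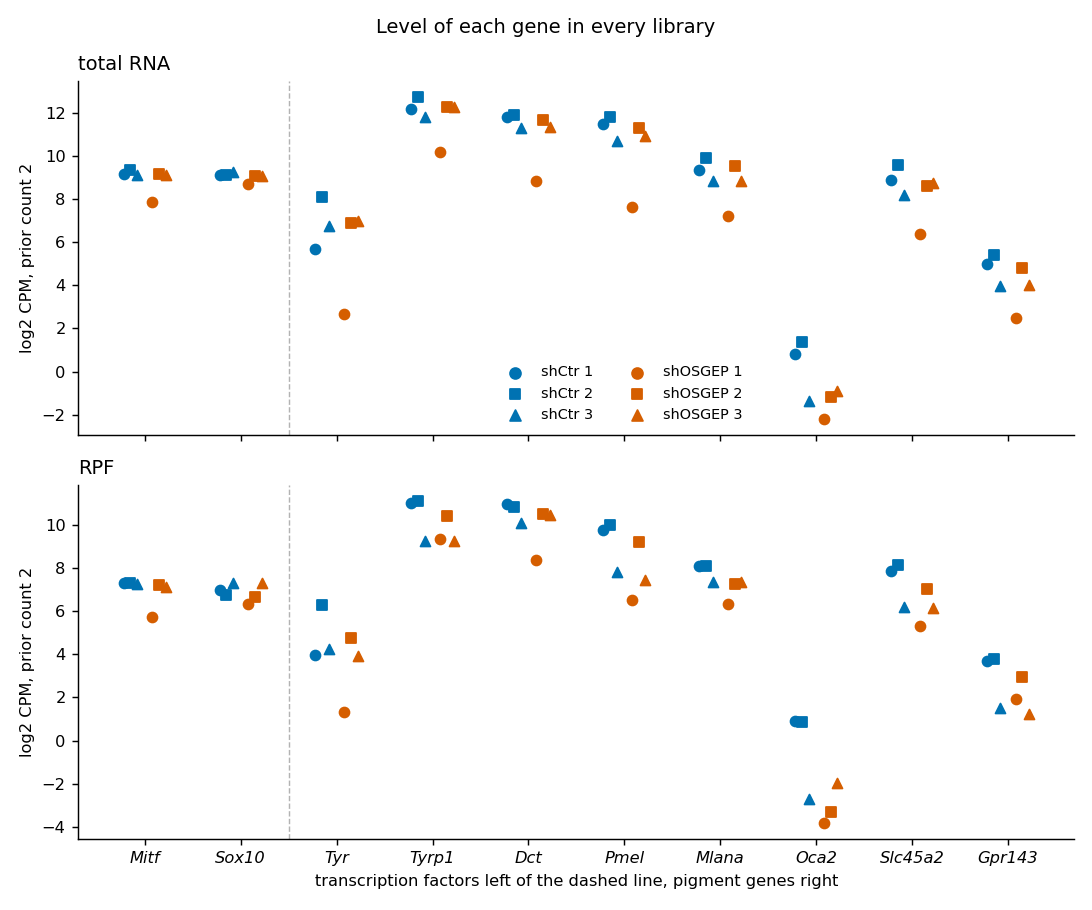
Level of each gene in the 6 total RNA libraries (top) and the 6 RPF libraries (bottom), as log2 CPM with a prior count of 2. Blue is shCtr and orange shOSGEP, and circles, squares and triangles are replicates 1, 2 and 3; each point is 1 library. The shOSGEP replicate 1 library is the lowest point for every gene in total RNA, and the shCtr points are spread more widely for the pigment genes than for Mitf and Sox10.

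The comparison of shOSGEP with shCtr total RNA asked whether Osgep knockdown altered the lineage programme. Values are given first by library, in CPM and in the order of replicates 1, 2 and 3. Mitf measured 588, 658 and 553 in shCtr and 232, 577 and 563 in shOSGEP. The replicate 1 value was 39.5% of its control, and the other 2 lay within the range of the controls. Sox10 measured 555, 569.7 and 619 in shCtr and 417, 543 and 546 in shOSGEP. It was the 1 gene of the 10 whose 3 shOSGEP values all lay below all 3 shCtr values, a pattern shown by 3.09% of the 14516 genes tested.

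Among the enzymes, Tyr was at 6.31, 119 and 127 CPM in shOSGEP, against the shCtr values of 51.9, 275 and 107 above. Only the replicate 1 value fell outside the controls. Tyrp1, the oxidase of a late melanin intermediate, had 4724, 6894 and 3688 CPM in shCtr and 1191, 4951 and 5049.9 in shOSGEP. For Dct, the dopachrome tautomerase, values were 3639, 3816 and 2540 in shCtr and 457, 3326 and 2652 in shOSGEP. The last 2 shOSGEP values of both genes were again within the controls.

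The melanosome proteins showed the same arrangement. Pmel had 2889.7, 3665 and 1694 CPM in shCtr and 203, 2527 and 1996 in shOSGEP. Its replicate 1 value was 7.03% of its control, or 14.2-fold lower on the log2 CPM scale, the largest difference among the 10 genes in total RNA, and 0.138% of the genes tested were lower still in that pair. Mlana, a membrane protein of early melanosomes, had 664, 959 and 463 in shCtr and 149, 748 and 456 in shOSGEP. Its replicate 3 values were nearly equal. Slc45a2, a melanosome transporter, had 482, 776 and 293 in shCtr and 83.1, 391 and 431 in shOSGEP. Gpr143 had 32.0, 42.3 and 15.5 in shCtr and 5.55, 28.0 and 16.4 in shOSGEP. For Oca2 the counts themselves were 103, 143 and 17 in shCtr and 12, 31 and 30 in shOSGEP, too few to fix its level closely.

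Within pairs, the total RNA of replicate 1 was lower in shOSGEP for all 10 genes, and for 7193 of the 14516 genes tested. Differences on the log2 scale ran from −1.99 (Tyrp1) to −3.83 (Pmel) for the 8 pigment genes, compared with −1.34 for Mitf and −0.41 for Sox10. A difference below −1 was seen for 9 of 10 genes in replicate 1, against 11.0% of all genes tested. In replicate 2 all 10 genes were again lower, from −0.07 (Sox10) to −2.59 (Oca2), as were 6969 of all genes tested. Only Tyr and Oca2 passed −1, against 1.67% of genes. Replicate 3 showed no such difference, with values from −0.18 (Sox10) to 0.55 (Slc45a2). There 2 of 10 genes were lower, beside 7205 of all genes tested, and none was below −1, against 1.03% of genes. The medians of the 10 genes were −2.53, −0.51 and 0.16 in pairs 1, 2 and 3, beside 0.01, 0.01 and 0.0 over all genes tested. Sox10 and Mlana were lower in 3 of 3 pairs, which 16.2% of genes were. Pair 1 was lower for all 10, so the same 2 genes were counted when only pairs 2 and 3 were used, as 24.6% of genes were.

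**Figure D2:**
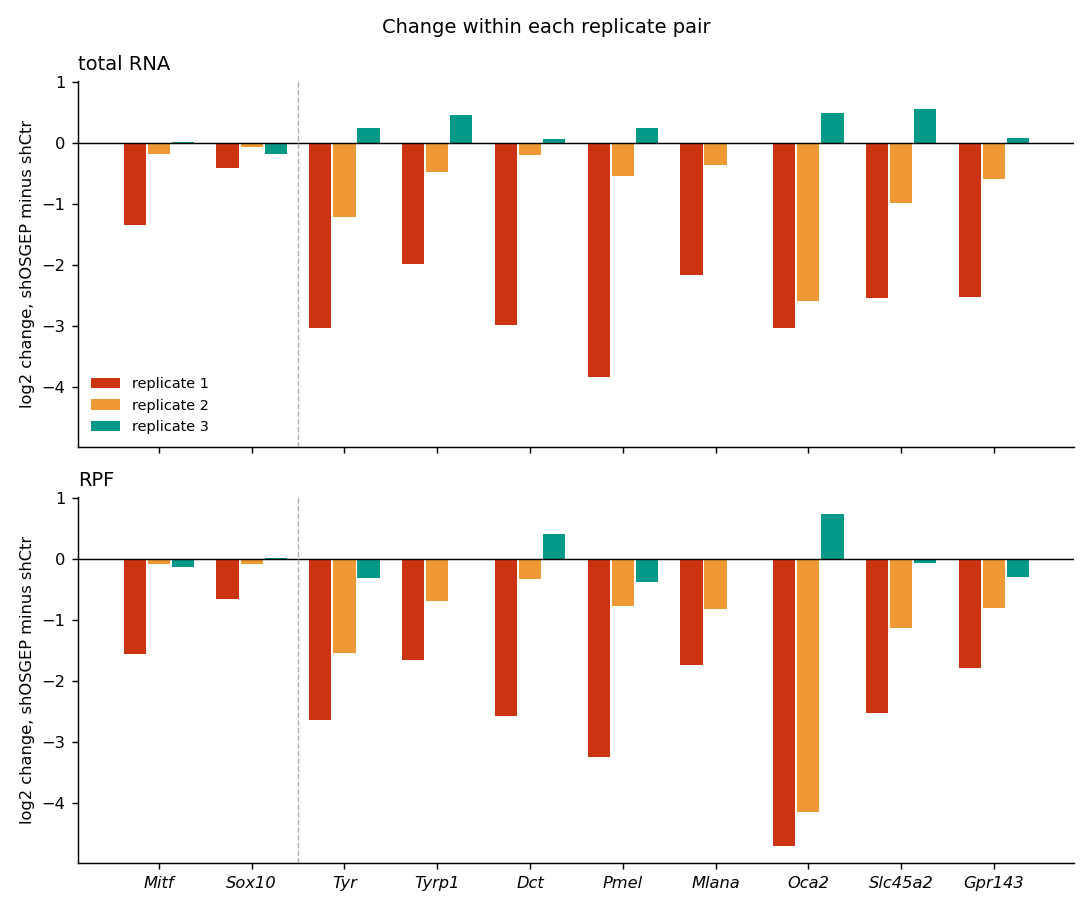
Difference in log2 CPM (shOSGEP minus shCtr) within replicate pairs 1, 2 and 3 for each gene, in total RNA (top) and RPF (bottom). Bars are single differences and carry no error. Replicate 1 bars reach −3.83 for Pmel in total RNA, replicate 2 bars are shorter and replicate 3 bars lie near 0 or above it in total RNA; the Oca2 bars in RPF rest on 0 to 32 counts.

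Across replicates, none of these differences passed the test. By the quasi-likelihood test of edgeR, 0 of 10 genes had an adjusted p under 0.05 in total RNA, as did 0.0% of the 14516 genes tested (259 at an unadjusted p under 0.05). Fitted log2 changes were −0.39 for Mitf (SE 0.34) and −0.21 for Sox10 (SE 0.16). They were −0.78 for Tyr (SE 1.02), −0.45 for Tyrp1 (SE 0.54) and −0.64 for Dct (SE 0.64). Among melanosome proteins they were −0.80 for Pmel (SE 0.79), −0.62 for Mlana (SE 0.56), −0.78 for Slc45a2 (SE 0.62), −0.85 for Gpr143 (SE 0.60) and −2.09 for Oca2 (SE 0.77). The edgeR adjusted p was 0.975 for all 10. Oca2 alone had an unadjusted p under 0.05 (0.0298 in the same edgeR test), as did 0.262% of genes in this direction. The replicates left wide margins, and 2 SE on either side of the estimate reached from −1.07 to 0.29 for Mitf, from −2.81 to 1.25 for Tyr and from −2.39 to 0.78 for Pmel. With the replicate block, which fits the pairs, 1 gene was called among all genes (Cdsn) and none of the 10. That fit gave −0.50 for Mitf (SE 0.30), −1.31 for Tyr (SE 0.67) and −1.25 for Pmel (SE 0.91). The unadjusted p of Oca2 was then 0.0833 by edgeR, and 0.586% of genes were lower with one under 0.05.

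Leaving out replicate 1 brought the fitted total RNA changes closer to 0. Without it they were −0.10 for Mitf, −0.14 for Sox10, −0.65 for Tyr, −0.09 for Tyrp1, −0.10 for Dct and −0.26 for Pmel. They were −0.25 for Mlana, −0.39 for both Slc45a2 and Gpr143, and −1.71 for Oca2. The median of the 10 genes was −0.71 with all replicates, beside 0.02 over all genes tested, and −0.25 without replicate 1. High interferon genes, low Osgep RNA and the low pigment genes thus came together in the same cells, and the part of each in the result was not tested.

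Footprints were compared next, to see whether ribosomes on these transcripts followed RNA. Mitf RPF measured 158, 158 and 154 CPM in shCtr and 53.4, 149 and 139.7 in shOSGEP. All 3 shOSGEP values lay below the narrow control range. Sox10 RPF was 126, 108 and 158 in shCtr and 80.1, 102 and 159 in shOSGEP, so the groups overlapped. Mlana, at 268, 268 and 163 in shCtr and 80.3, 152 and 161 in shOSGEP, was the second gene without overlap. These 2 of the 9 genes tested stand beside 2.64% of the 13529 genes tested in RPF.

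For the enzymes, Tyr had 15.8, 77.2 and 18.8 CPM in shCtr RPF and 2.48, 26.6 and 15.1 in shOSGEP. Tyrp1 had 2052, 2182 and 614 in shCtr and 649, 1352 and 607 in shOSGEP, and Dct had 1994, 1824 and 1066 in shCtr and 334, 1446 and 1409 in shOSGEP. In Tyrp1 the replicate 3 libraries of both genotypes were as low as shOSGEP replicate 1. The same held in part for Pmel, with 858, 1022 and 222 in shCtr and 90.3, 594 and 171 in shOSGEP. Slc45a2 had 233, 281 and 73.6 in shCtr and 40.2, 128 and 70.6 in shOSGEP. Gpr143, with 13.0, 13.6 and 2.80 in shCtr and 3.72, 7.71 and 2.28 in shOSGEP, was lowest in replicate 3 of shOSGEP.

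Pair differences in RPF were all negative in replicates 1 and 2, where 6769 and 6833 of the 13529 genes tested were lower. In replicate 1 the 7 pigment genes tested ranged from −1.66 (Tyrp1) to −3.25 (Pmel) on the log2 scale, with Mitf at −1.56 and Sox10 at −0.65, and 8 of 9 genes passed −1, against 14.4% of genes tested. In replicate 2 the range was −0.08 (Mitf) to −1.54 (Tyr), and Tyr and Slc45a2 passed −1, against 3.13% of genes. In replicate 3 it was −0.38 (Pmel) to 0.40 (Dct), with none below −1, against 1.81%. Of the 9 genes, 7 were lower in 3 of 3 pairs (15.2% of genes tested), namely Mitf, Tyr, Tyrp1, Pmel, Mlana, Slc45a2 and Gpr143. The same 7 were lower in pairs 2 and 3 alone (28.3% of genes), although for Tyrp1, Mlana and Slc45a2 the pair 3 value was within 0.06 of 0. The medians of the 9 genes were −1.79, −0.78 and −0.06 in pairs 1, 2 and 3, and the median over all genes tested was 0.0 in each.

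None of the 9 genes passed the test in RPF either. No gene of 13529 did (0.0%; 139 had an unadjusted p under 0.05), and none of the 9 was among the 0.273% of genes with an unadjusted p under 0.05 and a lower value. With the replicate block 2 of the 9 were, Tyr (−1.44, SE 0.45, edgeR unadjusted p 0.0213) and Gpr143 (−0.96, SE 0.34, edgeR unadjusted p 0.0343), as were 1.52% of genes, and their adjusted p was 0.817. In the fit without this block, Mlana had the smallest p of the 9, with a log2 change of −0.83 (SE 0.39, edgeR unadjusted p 0.072, adjusted p 1.0). Slc45a2 was next, with −1.30 (SE 0.62, edgeR unadjusted p 0.0731, adjusted p 1.0). The others were −1.33 for Tyr (SE 0.91), −1.30 for Pmel (SE 0.84), −1.09 for Gpr143 (SE 0.69), −0.89 for Tyrp1 (SE 0.61), −0.61 for Dct (SE 0.62), −0.46 for Mitf (SE 0.42) and −0.20 for Sox10 (SE 0.35). Without replicate 1 the estimates were −1.22 for Tyr, −0.71 for Pmel, −0.48 for Mlana, −0.85 for Slc45a2, −0.53 for Tyrp1, −0.71 for Gpr143, −0.03 for Dct, −0.12 for Mitf and −0.04 for Sox10. The median of the 9 genes was −0.89 with all replicates, beside 0.05 over all genes, and −0.53 without replicate 1.

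The transcription factors were then set against the pigment genes, as the mean log2 CPM of the 8 pigment genes minus the mean of Mitf and Sox10 in each library. In total RNA this difference was −0.99, −0.40 and −1.66 in shCtr and −2.87, −1.14 and −1.32 in shOSGEP for replicates 1, 2 and 3. The change from shCtr to shOSGEP was therefore −1.88 in pair 1, −0.74 in pair 2 and 0.34 in pair 3. In RPF the values were −0.11, 0.35 and −1.82 in shCtr and −1.61, −0.84 and −1.75 in shOSGEP. The pair differences were −1.51, −1.20 and 0.07. Oca2 is part of this mean although it was filtered out in RPF, and without it the pair differences in RPF were −1.21, −0.79 and −0.03. Those of total RNA were then −1.85, −0.49 and 0.31. The factors themselves stayed close together in 5 of the 6 total RNA libraries, where their mean was 9.11 to 9.26, compared with 8.28 in shOSGEP replicate 1. Over the same 5 libraries the pigment mean ran from 7.53 to 8.86, and it was 5.41 in shOSGEP replicate 1. The control libraries alone thus spanned 1.33 on the pigment axis at nearly constant Mitf and Sox10 RNA. Averaged over replicates, shOSGEP minus shCtr was −0.76 in total RNA and −0.88 in RPF, against an SD over shCtr libraries of 0.63 and 1.15, and without Oca2 it was −0.68 in each. Without replicate 1 the averages over all 8 genes were −0.20 and −0.56. No test was made of this score.

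**Figure D3:**
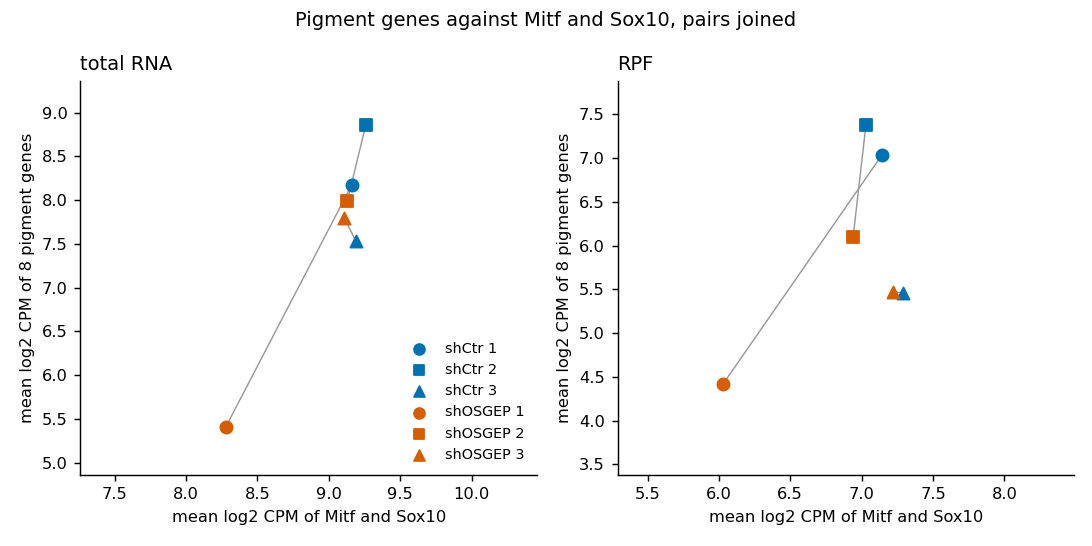
Mean log2 CPM of the 8 pigment genes (vertical axis) against the mean of Mitf and Sox10 (horizontal axis) in total RNA (left) and RPF (right). Each point is 1 library, coloured by genotype and shaped by replicate, and grey lines join the libraries of a pair. Oca2 is included in both panels. In total RNA 5 points lie in a column between 9.11 and 9.26 on the horizontal axis, and shOSGEP replicate 1 lies apart at 8.28 and 5.41.

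Footprints relative to RNA were compared in each cell sample as the difference of log2 CPM between RPF and total RNA. For Mitf it was −1.90, −2.06 and −1.84 in shCtr and −2.12, −1.96 and −2.01 in shOSGEP, a range of less than 0.3. Sox10 had −2.14, −2.40 and −1.97 in shCtr and −2.38, −2.41 and −1.78 in shOSGEP. Neither showed a direction common to the 3 pairs. Among the 7 pigment genes tested, the ratio in shOSGEP was equal or higher in pair 1 (0.0 for Slc45a2 to 0.73 for Gpr143), lower for all 7 in pair 2 (−0.14 to −0.46) and lower for 5 in pair 3 (−0.62 for Slc45a2 to 0.34 for Dct). Over all 12560 genes tested, 6173, 6556 and 6542 had a lower ratio in pairs 1, 2 and 3. No gene of the 9 was lower in 3 of 3 pairs, against 11.2% of the 12560 genes tested, and none had 3 shOSGEP values below all shCtr values, against 2.31%.

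In the interaction test of edgeR, no gene passed an adjusted p of 0.05 for translational efficiency, either among the 9 or among all genes tested (0.0%). Over all genes 17 had an unadjusted p under 0.05, and 0.0637% had one with a lower value in shOSGEP, none of them among the 9. The estimates ran from −0.56 for Tyr (SE 1.48) to 0.02 for Dct (SE 0.94), with −0.07 for Mitf (SE 0.55) and 0.01 for Sox10 (SE 0.38), all 9 with an adjusted p of 1.0 by edgeR. For Mitf, 2 SE on either side reached from −1.18 to 1.03 in this fit, which takes both assays of a cell sample as independent. A change of 1 on the log2 scale in either direction was within the margin of that fit. Fitting each cell sample, as the replicate block does here, gave −0.10 for Mitf (SE 0.23), a narrower margin.

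The ratio of the pigment genes differed more between replicate numbers than between genotypes. Pmel had −1.75, −1.84 and −2.93 in shCtr and −1.17, −2.09 and −3.54 in shOSGEP, lowest in replicate 3 of both. Tyrp1 had −1.20, −1.66 and −2.59 in shCtr and −0.88, −1.87 and −3.06 in shOSGEP. Counting genes whose ratio in both replicate 3 samples was below that of the other 4 samples gave 5 of the 7 pigment genes (Tyr, Tyrp1, Pmel, Slc45a2 and Gpr143), neither of the 2 factors, and 21.3% of the 12560 genes tested. This count was chosen after the values were seen. Dct and Mlana did not share it, with Dct at −1.25 and −0.91 in replicate 3, and the median ratio of all genes was −1.31 there in both genotypes, close to the −1.39 to −1.33 of the other samples. What replicate 3 had in common besides its number is not given in the sources used here.

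**Figure D4:**
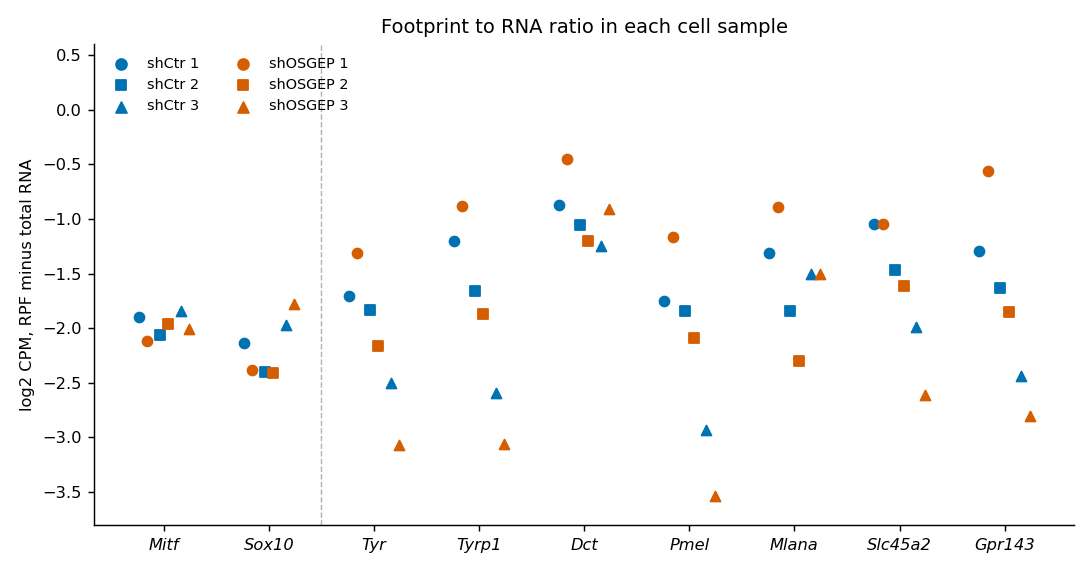
Log2 CPM in RPF minus log2 CPM in total RNA for 9 genes in the 6 cell samples, with genotype by colour and replicate by shape and position. Oca2 is left out for its low counts. Triangles (replicate 3) are the lowest points for Tyr, Tyrp1, Pmel, Slc45a2 and Gpr143 in both genotypes, but not for Mitf, Sox10, Dct or Mlana.

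Since t6A acts on ANN codons, the share of such codons was computed for the longest usable coding sequence of each gene. For Mitf this had 526 codons and was not matched to the isoform made in melanocytes. The share was 32.51% for Mitf, above 90.8% of the 11247 tested genes with a usable coding sequence, and 20.17% for Sox10, above 9.66% of them. The 8 pigment genes lay between 23.4% (Slc45a2) and 26.55% (Mlana), all below the median of 26.96% over these genes. Mitf and Sox10, at opposite ends of this scale, had estimated changes in translational efficiency of −0.07 (SE 0.55) and 0.01 (SE 0.38). Whether the codon share bears on footprints or their ratio to RNA was not tested.

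Neighbouring genes of the pathway were described from lists by name. Of 13 receptors and factors acting on or beside Mitf, 10 were tested in total RNA and 0 passed, with medians of −0.57, −0.08 and −0.05 in pairs 1, 2 and 3. Kit, Ednrb and Lef1 were removed by the filter. Mc1r, the melanocortin receptor, measured 283, 233 and 174 CPM in shCtr and 80.3, 211 and 178 in shOSGEP total RNA, a fitted change of −0.56 (SE 0.37, edgeR adjusted p 0.975). Tfap2a, a factor that acts with Mitf on pigment genes, had a change of −0.29 (SE 0.18), and Tfeb, a relative of Mitf, one of −0.33 (SE 0.17). The receptor Erbb3, with one of the smallest p-values of this list in RPF, had −0.49 there (SE 0.34, edgeR adjusted p 1.0).

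Of 7 other melanosome proteins, all were tested and 0 passed, with medians of −0.44, −0.36 and 0.17. Slc24a5, an ion exchanger of pigment cells, and Gpnmb, a relative of Pmel, resembled the pigment genes, at −1.92, −0.83 and 0.25 and at −1.85, −0.36 and 0.17 in pairs 1, 2 and 3 of total RNA. Bace2, a protease that cuts Pmel, was at −2.80, −0.40 and 0.04. The 24 genes of melanosome sorting and transport stayed near 0 as a group, with medians of −0.10, −0.05 and 0.01 in total RNA and 0 calls. In this list Rab27a, which moves melanosomes in the cell, was at −1.80, −0.47 and 0.30, and the partner of Rab27 proteins Sytl2 at −0.77, −1.01 and 0.26. Lyst had −1.19, −0.46 and 0.14, while Bloc1s6, a subunit of a sorting complex, was at 1.17, 0.34 and −0.03.

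Of 10 other genes known as Mitf targets, 8 were tested, 0 passed, and the medians were −0.46, −0.30 and 0.24 in total RNA. Trpm1, a channel gene transcribed in melanocytes, had 23.8, 89.2 and 18.3 CPM in shCtr and 4.12, 23.9 and 21.9 in shOSGEP, a range among controls like that of Tyr. Met, the receptor of hepatocyte growth factor, had 87.9, 125 and 29.0 in shCtr and 53.8, 34.6 and 52.3 in shOSGEP. Tbx2 had a fitted change of −0.45 (SE 0.20, edgeR unadjusted p 0.0638, adjusted p 0.975). In RPF these 4 lists also had 0 calls, with replicate 1 medians of −0.46, −0.83, −0.04 and −1.04 in the order given. Their medians were 0.06, −0.49, −0.09 and −0.35 in pair 2 and −0.02, −0.12, −0.08 and 0.35 in pair 3. In pair 3, 0 of the 8 Mitf targets tested were lower, against 6735 of all 13529 genes tested.

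Genes with a similar pattern were sought over the 12 libraries, with log2 CPM centred within each assay, among 6646 genes with at least 10 CPM in both. Nearest to the mean of the 8 pigment genes were Syt4 (Pearson r = 0.991), Tspan10 (0.989) and Ptgds (0.971). Of the 10 genes themselves, Slc45a2 (0.995) and Pmel (0.980) were closest to this mean, which they form part of, while Mitf was at 0.853 and Sox10 at 0.363. Among the 3 genes nearest to Mitf were Spsb4 (0.994) and Nek2 (0.992), and Dct was at 0.961. These values describe 6 cell samples measured in 2 assays, with shOSGEP replicate 1 far from the others, and have no test.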

How the data were processed

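The deposited tables held raw counts per Ensembl gene, 1 table for RPF and 1 for total RNA, each with 6 libraries. Per the labels and the methods, the authors captured ribosomes with a puromycin analogue, size-selected fragments and listed FastQC 0.11.9, Trim Galore 0.6.6, cutadapt and STAR among their processing tools, with the builds GRCm39 and GRCm38. The methods name STAR on GRCm38 and Salmon for RNA sequencing, but list that experiment as separate data, so whether this covers the total RNA counts here is not known. For RPF the counting step, and for both tables the use of strand, are not given in the sources used here. GENCODE M21 supplied symbols and lengths for 55141 gene IDs, and 346 had no match.

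Counts were tested with edgeR 4.0.16 (R 4.3.3; filterByExpr, TMM, quasi-likelihood test, Benjamini-Hochberg adjustment over all genes, threshold 0.05), separately per assay, and as an interaction over 12 libraries for translational efficiency. Log2 CPM used a prior count of 2. Each SE was derived from the test, as the size of the log2 change over the square root of its F statistic. A margin of 2 SE is therefore not a formal confidence interval. The 10 genes and all lists were chosen with earlier results of these data known. From each pathway list the text names the 3 genes with the smallest p in total RNA and 2 in RPF. Genes named by likeness come from the 3 with the highest r, of which 1 for Mitf is not reported here. Same-numbered libraries of the 2 genotypes deviated together (correlations 0.52, 0.54 and 0.29 in total RNA, 0.59, 0.51 and 0.66 in RPF for replicates 1, 2 and 3), so the labels' replicate numbers were taken as pairs in an alternative fit. Replicates differed by more than sampling noise (chi-square per degree of freedom at least 89.6). Other alternatives were RLE factors, no filter, DESeq2 1.42.0, protein-coding genes only, a prior count of 0.5 and leaving out libraries.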

Additional observations from a re-analysis of the deposited data

How the results depend on the processing

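None of the genes read out among the 10 passed an adjusted p of 0.05 under any alternative run. Oca2 was not read out for RPF or translational efficiency in these runs. With no filter it was part of those fits, so whether it passed there is not known from this check. With no filter, the edgeR adjusted p in RPF was 0.084 for Tyr and 0.377 for Slc45a2. Counts over all genes did move. With DESeq2, 8 genes were called in total RNA and 1 in RPF, with the replicate block 1 in total RNA, and with no filter 229 in RPF and 21 for translational efficiency. The replicate block left the median of the genes at −0.98 in total RNA, −0.85 in RPF and −0.10 for translational efficiency and changed no other call by adjusted p. For the pigment genes against the factors, the median over genes in place of the mean gave −0.56 in total RNA and −0.63 in RPF, a prior count of 0.5 gave −0.77 and −0.99, and leaving out Oca2, chosen after the data were seen, gave −0.68 and −0.68. Leaving out libraries or pairs gave medians of −1.11 to −0.23 in total RNA, −1.37 to −0.53 in RPF and −0.53 to −0.05 for translational efficiency, and −1.31 to −0.20 and −1.52 to −0.44 for the pigment genes against the factors in total RNA and RPF, where the value without replicate 1 was −0.20 and −0.56.

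The direction of single genes turned in 14 of 401 comparisons with an alternative. In total RNA this was Tyr at 0.08 without shCtr replicate 2, within a range of −1.39 to 0.08 over the fits that left out samples. The others were in translational efficiency, where Sox10 was at −0.03 with no filter and with the replicate block and at −0.24 to 0.13 over the fits that left out samples, Dct at −0.10 to 0.18, Mlana at −0.39 to 0.23, Tyrp1 at −0.70 to 0.05 and Gpr143 at −0.53 to 0.09. Oca2 is limited by its counts.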
